A study of Mus musculus with 32 samples.

Results

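Macrophages and monocytes were followed in whole mouse kidney through 10 marker genes: Csf1r, Adgre1, Cd68, Itgax, Lyz2, Cd14, Ms4a6d, Mrc1, Retnla and Clec7a. They were chosen by name, each through the array feature that names only that gene, and all 10 were measured, with 1 feature each, among 22180 genes. The kidneys came from male strain 129 mice in 4 groups of 8: Col4a3-/- mice (KO) at 4 weeks, Col4a3+/+ littermates (WT) at 4 weeks, KO mice at 7 weeks and WT mice at 7 weeks. The KO mice lack the α3 chain of type IV collagen in every cell, a model of Alport syndrome, in which the glomerular basement membrane fails and the kidney scars. The sources used here do not state which exons the deletion removes. Each mouse gave 1 Affymetrix Mouse Gene 2.0 ST array of total kidney RNA, and all values below are log2 signals after the authors' RMA normalization, so a difference of 1 is a doubling of signal.

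Macrophages in the kidney come from a resident population seeded early in life and from blood monocytes that enter injured tissue and mature there. Csf1r, the receptor for CSF1 and IL-34, keeps cells of this lineage alive, and Adgre1 is the classical surface marker of mouse macrophages. Recruited cells take up debris through lysosomes rich in Cd68, sense microbes and dying cells through Cd14 and Clec7a, and may adopt an interleukin-4-driven state marked by Mrc1 and Retnla. None of these transcripts is limited to macrophages: Itgax is also a dendritic cell gene, Mrc1 is made by some endothelium, and Cd14 can be made by injured tubule cells.

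The targeted gene fitted the labels, with Col4a3 between 7.60 and 8.42 in KO and between 8.46 and 9.33 in WT mice at 4 weeks, and between 6.97 and 7.87 in KO and between 8.74 and 9.06 in WT mice at 7 weeks. Arrays of 1 group correlated at 0.965 to 0.995 over genes, and 0 pairs of arrays held the same values. The lowest array weights in limma, 0.337 and 0.388, belonged to KO mice 4 and 5 at 4 weeks, and the number of marker genes that passed in limma was the same without these arrays in each of the 5 comparisons, a check chosen after the data were seen. The number of arrays limits the precision of every estimate. Differences are limma estimates with their standard error (SE), n = 8 mice per group, with p adjusted by Benjamini-Hochberg over all 22180 genes and a threshold of 0.05. In bulk tissue, more cells of a type and more RNA per cell cannot be told apart.

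The promoters of 6 of the 10 genes were taken from a RefSeq table (build GRCm38.p6, 250 bases before to 50 after the start site): Cd68, Clec7a, Mrc1, Retnla, Itgax and Lyz2. They were searched on both strands for GAGGAA, for the AP-1 site TGANTCA and for the letters TTGCNNNAA. Of these, GAGGAA is a form of the site of PU.1, the transcription factor that establishes the macrophage lineage. These 3 motifs occur in 28.3%, 7.81% and 9.56% of the 32851 promoters of that table. The selection of marker gene promoters left out all entries on 1 chromosome, which these shares kept. Csf1r, Adgre1, Cd14 and Ms4a6d were not searched, so the counts below cover only part of the marker genes. GAGGAA or its complement was present in 4 of the 6 promoters, TGANTCA in 2 (Cd68 and Itgax) and TTGCNNNAA in 0. A match is a description of letters and not of binding. Other forms of the PU.1 site were not searched, and Itgax and Lyz2, whose promoters lack GAGGAA, also rose at 7 weeks. The 4 promoters that hold GAGGAA are shown as examples of where it lies, with these letters in capitals on either strand:
Cd68, chr11:69666121-69666420, minus strand: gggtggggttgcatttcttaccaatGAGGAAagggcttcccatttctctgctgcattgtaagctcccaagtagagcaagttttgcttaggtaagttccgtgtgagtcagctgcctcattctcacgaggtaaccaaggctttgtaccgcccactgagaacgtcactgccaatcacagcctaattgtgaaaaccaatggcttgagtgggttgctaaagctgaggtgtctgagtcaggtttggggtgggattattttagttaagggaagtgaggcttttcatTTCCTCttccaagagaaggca
Clec7a, chr6:129472730-129473029, minus strand: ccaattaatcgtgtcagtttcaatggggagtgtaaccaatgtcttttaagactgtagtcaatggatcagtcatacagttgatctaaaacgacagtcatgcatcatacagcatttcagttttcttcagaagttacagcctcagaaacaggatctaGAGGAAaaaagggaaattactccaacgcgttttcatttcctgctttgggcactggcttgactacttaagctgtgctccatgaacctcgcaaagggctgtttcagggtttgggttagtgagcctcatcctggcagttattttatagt
Mrc1, chr2:14229164-14229463, plus strand: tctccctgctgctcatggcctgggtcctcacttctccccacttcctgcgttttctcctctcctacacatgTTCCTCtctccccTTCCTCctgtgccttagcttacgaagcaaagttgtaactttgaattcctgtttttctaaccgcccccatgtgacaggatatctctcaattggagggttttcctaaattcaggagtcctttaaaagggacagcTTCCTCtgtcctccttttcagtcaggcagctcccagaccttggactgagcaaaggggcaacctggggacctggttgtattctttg
Retnla, chr16:48842359-48842658, plus strand: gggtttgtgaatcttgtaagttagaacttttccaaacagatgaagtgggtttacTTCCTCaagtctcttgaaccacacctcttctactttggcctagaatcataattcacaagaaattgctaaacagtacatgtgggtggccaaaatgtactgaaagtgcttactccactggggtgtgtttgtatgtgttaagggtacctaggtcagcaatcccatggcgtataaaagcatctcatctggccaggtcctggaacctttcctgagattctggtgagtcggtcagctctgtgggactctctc
The Mrc1 promoter holds 3 copies, the nearest 35 bases before the start site, Cd68 holds 2, one of them 29 bases after it, and Clec7a (one of its 2 neighbouring entries in the table) and Retnla hold 1 each. Cd68 also has 2 copies of TGANTCA, 149 and 24 bases before the start.

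At 7 weeks all 10 marker genes were higher in KO than in WT kidneys, by 1.47-fold for Csf1r and by 4.44-fold to 16.8-fold for the other 9. Over all genes, 15.6% were higher and 16.7% lower in this comparison. For 9 of the 10, every KO mouse lay above every WT mouse, a separation that 7.62% of all genes showed in this direction. The median difference of the 10 was 3.00, against -0.06 for all genes. Lyz2, Cd14, Ms4a6d, Retnla and Clec7a ranked 7th, 10th, 14th, 16th and 17th of 22180 genes by size of increase, while Csf1r ranked 1607th.

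**Figure D1:**
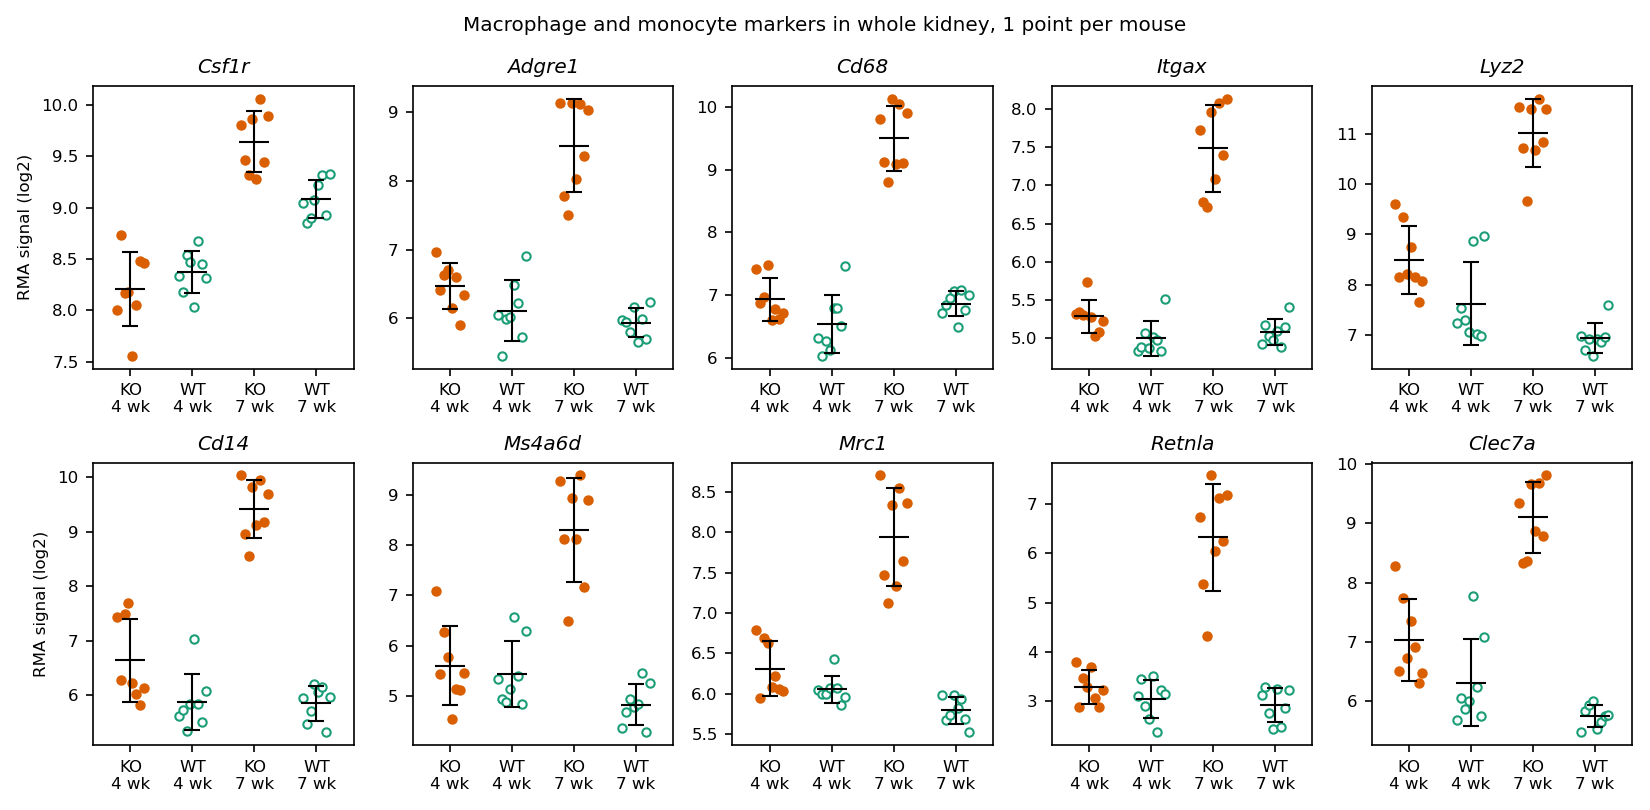
Log2 RMA signal (y axis, a separate range for each gene) of the 10 marker genes, with 1 point per mouse and the mean ± SD of the 8 mice in black; KO mice are filled orange and WT mice open green. At 7 weeks the KO points stand clear of the WT points in 9 panels, while for Csf1r both groups are higher than at 4 weeks and overlap at 7 weeks.

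The lineage receptors behaved unequally at 7 weeks. Csf1r had a lowest, median and highest signal of 9.28, 9.64 and 10.06 in KO mice, against 8.85, 9.06 and 9.33 in WT mice. The groups overlapped, with 6 KO mice above every WT mouse and 2 WT mice within the KO range. The difference was 0.56 ± 0.13 (1.47-fold, adjusted p = 0.000931 in limma). Adgre1, an adhesion G protein-coupled receptor, ran from 7.50 through a median of 8.70 to 9.14 in KO mice, against 5.65, 5.97 and 6.24 in WT mice. Every KO mouse was higher, and the difference was 2.58 ± 0.21 (5.97-fold, adjusted p = 2.13e-11). Within each mouse, Adgre1 signal minus Csf1r signal lay between -1.82 and -0.67 in KO and between -3.57 and -2.90 in WT mice, so that the ratio of these 2 features differed between the genotypes without overlap. Such a difference shows unequal change and says nothing of which gene is more abundant, since features on an array differ in brightness.

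The genes of phagocytic content and of adhesion also rose. Cd68, a lysosomal glycoprotein of phagocytes, had a lowest, median and highest signal of 8.81, 9.47 and 10.13 in KO mice, against 6.49, 6.89 and 7.08 in WT mice at 7 weeks (difference 2.64 ± 0.19, 6.23-fold, adjusted p = 1.15e-12). Lyz2, the lysozyme of macrophages and neutrophils, stood at 9.67, 11.16 and 11.69 in KO mice, against 6.59, 6.92 and 7.59 in WT mice. Its difference of 4.07 ± 0.30 (16.8-fold, adjusted p = 2.24e-12) was the highest of the 10, and the nearest mice of the 2 groups were more than 2 log2 units apart. Lyz1, its close relative by sequence, rose by 2.44 ± 0.25 (adjusted p = 2.62e-09). Probe sequences were not analysed here, so signal shared between these 2 lysozyme features was not tested. Itgax (CD11c), the α chain of a complement-receptor integrin, stood at 6.71, 7.56 and 8.13 in KO mice, against 4.89, 5.06 and 5.41 in WT mice (2.40 ± 0.16, 5.27-fold, adjusted p = 3.02e-13). Of its family, Itgal rose by 0.81 ± 0.12 (adjusted p = 1.76e-06), while Itgad stood at -0.15 ± 0.09 and did not pass (adjusted p = 0.249).

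Both pattern-recognition receptors rose by more than 10-fold. Cd14, the co-receptor that hands lipopolysaccharide to TLR4, had a lowest, median and highest signal of 8.55, 9.44 and 10.03 in KO mice, against 5.32, 5.95 and 6.20 in WT mice at 7 weeks. KO and WT mice were fully separated (3.56 ± 0.26, 11.8-fold, adjusted p = 1.71e-12). Clec7a (dectin-1), the receptor for fungal β-glucan, stood at 8.32, 9.10 and 9.81 in KO mice, against 5.48, 5.76 and 6.01 in WT mice (3.36 ± 0.28, 10.3-fold, adjusted p = 2.25e-11). Its 8 WT values lay within 0.53 of each other, whereas the KO values spread over 1.48.

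Ms4a6d, a tetraspan membrane protein of monocytes and macrophages, and both alternative activation genes were higher in KO mice as well. Ms4a6d ranged from 6.49 to 9.38 with a median of 8.50 in KO mice, against 4.28 to 5.46 with a median of 4.81 in WT mice (3.47 ± 0.35, 11.1-fold, adjusted p = 1.57e-09). Its relatives Ms4a6c and Ms4a6b rose by 2.86 ± 0.30 and 2.07 ± 0.24 (adjusted p = 4.71e-09 and 2.41e-08). Mrc1 (CD206), an endocytic mannose receptor, had a lowest, median and highest signal of 7.12, 7.99 and 8.71 in KO mice, against 5.52, 5.78 and 5.99 in WT mice (2.15 ± 0.17, 4.44-fold, adjusted p = 1.74e-11). Retnla, a secreted resistin-like protein induced by interleukin-4, had the widest KO spread of the 10 genes. Its signal stood at 4.31, 6.49 and 7.59 in KO mice, against 2.44, 2.99 and 3.29 in WT mice (3.40 ± 0.29, 10.5-fold, adjusted p = 5.05e-11). The other resistin family genes did not pass: Retn stood at -0.10 ± 0.11, Retnlb at -0.14 ± 0.11 and Retnlg at -0.04 ± 0.12 (adjusted p = 0.517, 0.349 and 0.846). The mean Retnla signal over all 32 mice was below the 25th percentile of genes, and detection calls were not used here, so whether its WT values lie above the array's background was not tested.

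**Figure D2:**
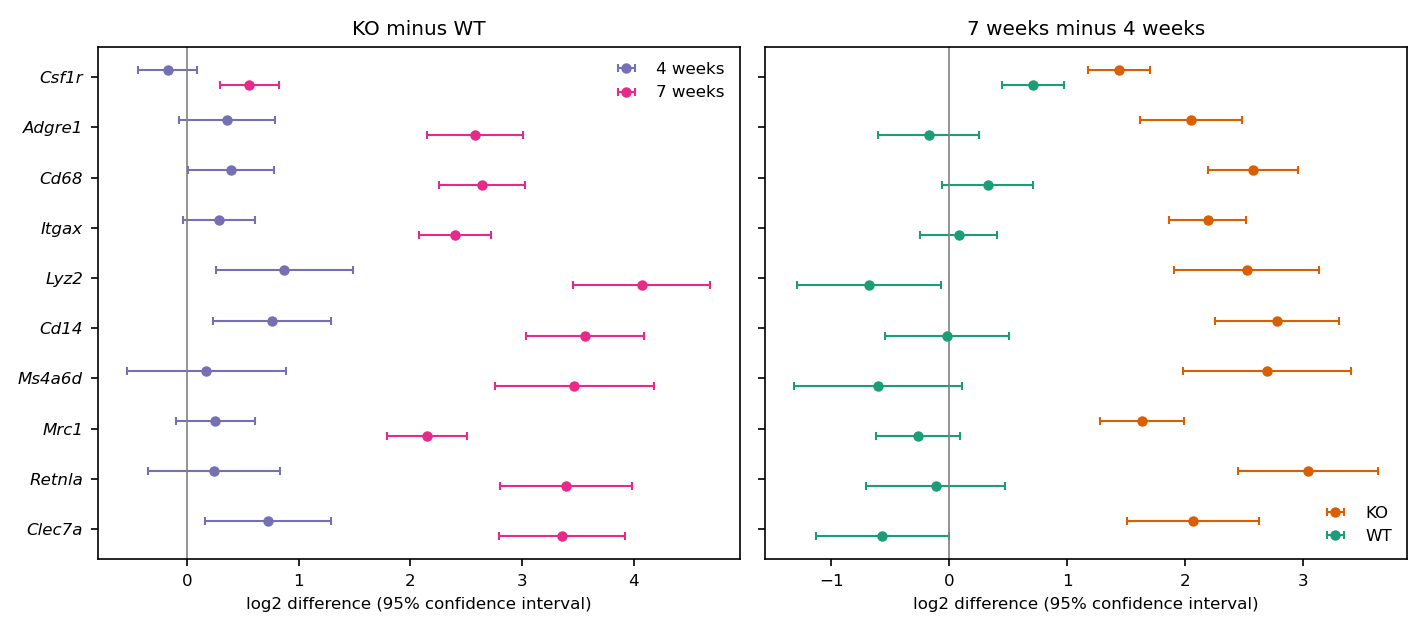
Log2 differences with 95% confidence intervals from limma for each marker gene (rows), for KO minus WT at 4 and 7 weeks (left) and for 7 minus 4 weeks in KO and WT mice (right). The 7-week genotype differences run from 0.56 for Csf1r to 4.07 for Lyz2, and only Csf1r has a WT age interval wholly above 0.

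Exact permutation tests over all 12870 splits of 8 and 8 mice gave p = 0.000155, the smallest they can give, for 9 of the 10 genes at 7 weeks, and p = 0.000932 for Csf1r (two-sided). With each mouse left out in turn, all 10 passed in 16 of 16 fits. Array medians averaged 0.11 higher in KO than in WT mice at this age. With each array centred on its median, the Csf1r difference was 0.45 and that of Lyz2 3.96.

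Within the KO group at 7 weeks the same mice were high across the genes. The mean signal over the 10 genes had an SD of 0.63 in KO mice, against 0.12 in WT mice (n = 8 each). KO mice 1, 4, 6 and 8 lay above the KO mean, and mice 2, 3, 5 and 7 below it, for all 10 marker genes, Csf1r included. This arrangement was picked after the values of the marker genes were seen. Of all genes, 6.58% showed it and 6.39% the opposite one, which is a description and no test. Mouse 3 was lowest for 8 of the 10 genes, and mouse 6 was among the highest 2 for 8 of them. That mean ran from 7.68 in mouse 3 to 9.37 in mouse 6 among KO mice, against 5.74 to 6.13 in WT mice. The KO mouse with the least signal therefore still stood above every WT mouse. Retnla varied by 3.27 log2 units between KO mice and Ms4a6d by 2.90, whereas Csf1r varied by 0.78.

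**Figure D3:**
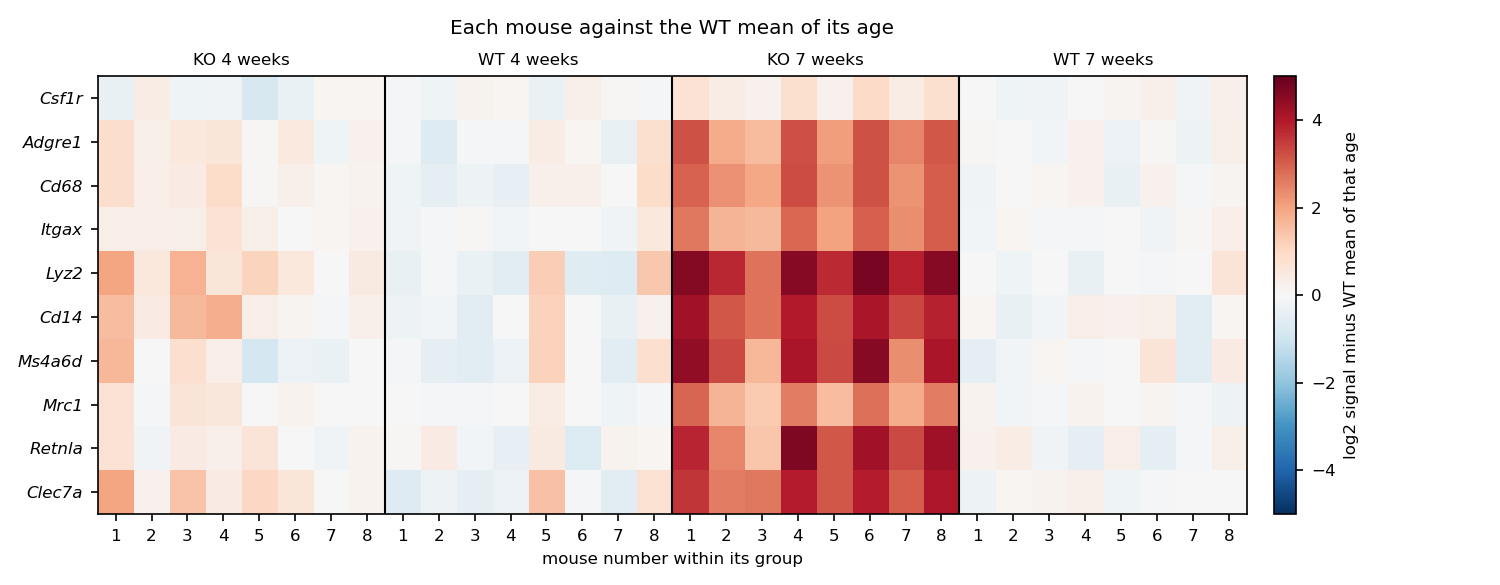
Colour gives each mouse's log2 signal minus the mean of the WT mice of its age, for the marker genes (rows) in all 32 mice (columns, numbered within the group). KO mice at 7 weeks are red throughout, palest for Csf1r and, across most genes, in mouse 3, and at 4 weeks KO mice 1, 3 and 5 and WT mice 5 and 8 are the 5 reddest for Lyz2 and for Clec7a.

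At 4 weeks 0 of the 10 marker genes passed in limma, where 0.0316% of all genes were higher and 0.00902% lower, and 0 passed in rank-sum tests. Before adjustment p was below 0.05 for 4 of the 10 in limma and 4 in rank-sum tests, compared with 9.22% and 7.2% of all genes. The estimates were above 0 for 9 genes and below 0 for Csf1r, with a median of 0.32, against -0.01 for all genes. Groups overlapped for all 10, and 0.0271% of all genes had every KO mouse above every WT mouse. For Ms4a6d the 95% confidence interval ran from -0.54 to 0.89, and for Retnla from -0.35 to 0.83. These intervals rest on a spread pooled over the 4 groups: at 4 weeks the SD of Retnla was 0.345 for KO mice and 0.391 for WT mice, while at 7 weeks it was 1.08 for KO mice.

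Lyz2, Cd14 and Clec7a had the highest estimates at 4 weeks. Lyz2 had a lowest, median and highest signal of 7.65, 8.19 and 9.59 in KO mice, against 6.97, 7.26 and 8.97 in WT mice (0.87 ± 0.30, adjusted p = 0.38, exact permutation p = 0.0389). Cd14 stood at 5.83, 6.25 and 7.69 in KO mice, against 5.34, 5.78 and 7.03 in WT mice (0.76 ± 0.26, adjusted p = 0.374, exact permutation p = 0.0418). Clec7a stood at 6.31, 6.82 and 8.27 in KO mice, against 5.68, 6.03 and 7.77 in WT mice (0.73 ± 0.28, adjusted p = 0.421, exact permutation p = 0.0615). For Lyz2 and Clec7a, 2 WT mice (5 and 8) reached into the KO range. For Cd14, 3 KO mice lay above every WT mouse, and 4 WT mice lay above the lowest KO mouse. KO mouse 1 was the highest KO mouse for 6 of the 10 genes, and mouse 3 was among the highest 2 for 5. Among WT mice, mouse 5 was highest for 5 genes and mouse 8 for 4, yet mouse 5 had the lowest Csf1r signal of the WT group (8.04).

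The other members gave smaller values at 4 weeks. Cd68 stood at 6.60, 6.83 and 7.47 in KO mice, against 6.03, 6.41 and 7.46 in WT mice (0.39 ± 0.19, adjusted p = 0.533). Itgax had an estimate of 0.29 ± 0.16 (adjusted p = 0.594, exact permutation p = 0.0188), Adgre1 of 0.36 ± 0.21 (0.621) and Mrc1 of 0.25 ± 0.17 (0.682). Retnla (0.24 ± 0.29, adjusted p = 0.837) and Ms4a6d (0.17 ± 0.35, adjusted p = 0.914) were the least certain, and without KO mouse 1 the Ms4a6d estimate turned to -0.036. Csf1r stood at 7.56, 8.17 and 8.73 in KO mice, against 8.04, 8.39 and 8.68 in WT mice (-0.17 ± 0.13, adjusted p = 0.725). KO mice held both the lowest and the highest Csf1r value of this age.

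The genotype effect was larger at 7 than at 4 weeks for all 10 genes in the interaction test, in which 9.8% of all genes passed in this direction. The excess ran from 0.73 ± 0.18 for Csf1r (adjusted p = 0.00506) through 1.89 ± 0.25 for Mrc1 and 2.11 ± 0.23 for Itgax to 3.16 ± 0.41 for Retnla, 3.20 ± 0.43 for Lyz2 and 3.29 ± 0.50 for Ms4a6d (adjusted p = 1.69e-05). Within KO mice, all 10 genes were higher at 7 than at 4 weeks (21.4% of all genes were), with differences from 1.44 ± 0.13 for Csf1r to 3.04 ± 0.29 for Retnla. For 9 of them every 7-week KO mouse exceeded every 4-week KO mouse (6.89% of all genes). The exception was Ms4a6d, for which 4-week KO mouse 1 (7.08) reached above 7-week KO mouse 3 (6.49).

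Csf1r was the only one of the 10 to pass with age in WT mice in the limma fit of all groups. It stood at 8.85, 9.06 and 9.33 in WT mice at 7 weeks, against 8.04, 8.39 and 8.68 at 4 weeks, with no overlap (0.71 ± 0.13, 1.63-fold, adjusted p = 9.55e-05). In this comparison 15.4% of all genes rose and 7.38% were wholly higher. The order of Csf1r levels was thus KO at 7 weeks, WT at 7 weeks, then both genotypes at 4 weeks, which did not differ beyond their spread. For the other 9 genes KO mice at 7 weeks came first, and the WT groups of both ages did not differ past the threshold in the limma fit of all groups. For Lyz2, 6 WT mice at 7 weeks lay below every WT mouse at 4 weeks. Lyz2 stood at -0.68 ± 0.30, Ms4a6d at -0.60 ± 0.35, Clec7a at -0.57 ± 0.28 and Mrc1 at -0.26 ± 0.17 in WT mice at 7 against 4 weeks. None of them passed in the limma fit of all groups (adjusted p = 0.0907, 0.217, 0.129 and 0.292). Lyz2 and Mrc1 did pass in rank-sum tests (adjusted p = 0.0264 and 0.0129), and Mrc1 also passed in limma when only the WT groups were fitted.

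Ligands and receptors around Csf1r rose with it at 7 weeks. Beside this and each later list count at that age, 15.6% of all genes rose and 16.7% fell. Of 8 colony-stimulating factor genes 6 rose and 0 fell, with a median difference of 1.05. Csf1, the main ligand of Csf1r, rose by 1.77 ± 0.16 (3.42-fold, adjusted p = 2.36e-10), beside 0.56 ± 0.13 for the receptor. Receptor subunits for other colony-stimulating factors rose as well, with Csf2rb2 at 1.67 ± 0.19, Csf3r at 1.12 ± 0.11 and Csf2ra at 0.98 ± 0.12, while the ligands Csf2 (0.06 ± 0.10) and Csf3 (-0.15 ± 0.09) did not pass. Among 10 measured transcription factors of the lineage, 4 rose and 2 fell. Spi1, which encodes PU.1, rose by 1.35 ± 0.15 (2.55-fold, adjusted p = 1.06e-08), Runx1 by 2.32 ± 0.17 and Irf8 by 0.97 ± 0.17. Maf fell (-0.51 ± 0.11, adjusted p = 0.000598), and Cebpb (0.18 ± 0.09) and Tfec (0.14 ± 0.11) did not pass.

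Many signalling partners of the pattern-recognition receptors rose at 7 weeks. Of 10 genes that work with Cd14 in lipopolysaccharide sensing, 7 rose and 1 fell, with a median of 0.60 against 3.56 for Cd14. They included Tlr2 (2.21 ± 0.16), the binding protein Lbp (1.71 ± 0.15), Tlr4 (1.12 ± 0.16) and the adaptor Myd88 (0.76 ± 0.09), while Ticam1 (-0.22 ± 0.10) and Traf6 (-0.01 ± 0.05) did not pass. Of 10 genes of Clec7a signalling and related lectins, 9 rose and 0 fell, with a median of 0.48 against 3.36 for Clec7a. The kinase Syk rose by 1.11 ± 0.08 (adjusted p = 3.12e-12), the lectin Clec4n by 2.35 ± 0.22, Vav1 by 1.55 ± 0.19 and Malt1 by 0.39 ± 0.07, and the adaptor Card9 (0.17 ± 0.09) did not pass.

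Genes listed for both activation states were among those that rose at 7 weeks, and which cells made them was not tested. Of 13 classical activation genes 11 rose and 0 fell (median 1.30), among them Tnf (1.46 ± 0.13), Il1b (1.83 ± 0.19), Cd86 (1.60 ± 0.17) and Cd80 (1.41 ± 0.16), while Il12b (0.13 ± 0.09) and Slamf1 (0.02 ± 0.09) did not pass. Besides Mrc1 and Retnla, 8 of 14 alternative activation genes rose and 1 fell (median 0.34). The lectin Mgl2 rose by 2.68 ± 0.17 (6.40-fold), the chemokine Ccl17 by 4.10 ± 0.28, Fn1 by 2.64 ± 0.20 and Tgfb1 by 1.12 ± 0.13. The alternative list did not move as a block: Arg1, the arginase that is a textbook marker of this state in mice, fell (-0.30), Chil3 stood at -0.15 and Il10 at -0.20 ± 0.09. Arg1 and Chil3 were named after their values were seen. Whether the 2 lists differed was not tested.

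Genes listed for blood monocytes, resident macrophages and scar-associated macrophages each split, and the cells that made them in whole kidney were not identified. Of 11 blood monocyte genes 8 rose and 1 fell (median 0.51), with the chemokine receptor Ccr2 at 2.60 ± 0.25 (6.06-fold, adjusted p = 7.74e-10), Plac8 at 1.94 ± 0.22, Vcan at 1.58 ± 0.14 and F13a1 at 0.63 ± 0.12. Of 10 resident macrophage genes 6 rose and 0 fell (median 0.45). The complement genes C1qb (2.90 ± 0.25), C1qc (2.22 ± 0.23) and C1qa (1.75 ± 0.18) and the lipid carrier Apoe (1.26 ± 0.15) rose, whereas Lyve1 (0.12 ± 0.10) and Folr2 (-0.08 ± 0.10) did not pass. Of 9 lipid- and scar-associated genes 7 rose and 1 fell (median 1.09). Those that rose included Lgals3 (1.17 ± 0.09), Mmp12 (2.42 ± 0.18), Gpnmb (1.97 ± 0.17) and Cd9 (1.09 ± 0.11), while Fabp5 (-0.07 ± 0.08) did not pass. The one that fell was Lpl, lipoprotein lipase (-1.21 ± 0.18, adjusted p = 2.37e-06). Other genes that fell in these lists were Ace among blood monocyte genes (-0.69 ± 0.19), Nr1h3 among transcription factors (-0.28 ± 0.07) and Irak1 among partners of Cd14 (-0.22 ± 0.07), and these 4 genes were named after their values were seen. In a further list of 22 macrophage genes 21 rose and 1 fell (median 1.85), with C3ar1 at 2.78 ± 0.18, Lilrb4a at 3.06 ± 0.21, Axl at 1.66 ± 0.12 and Fcer1g at 2.68 ± 0.21. The gene that fell was the efferocytosis receptor Mertk (-0.41), named after its value was seen. At 4 weeks 0 genes of these 10 lists passed, and 1 alternative activation gene did when WT mouse 5 of that age was left out.

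**Figure D4:**
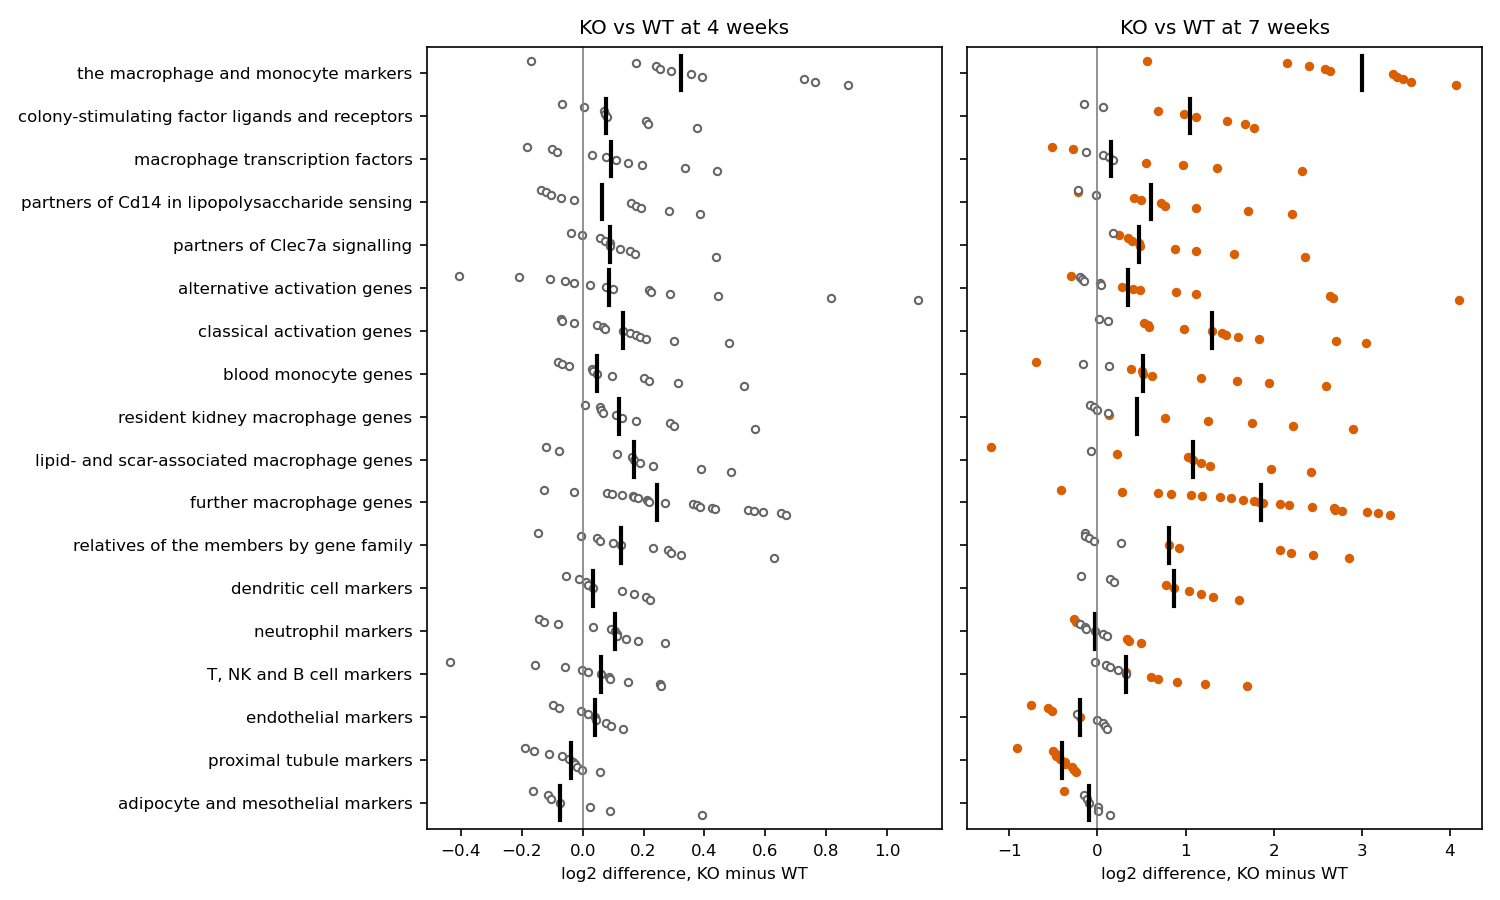
Log2 difference, KO minus WT, of every measured gene of each list (rows) at 4 weeks (left) and 7 weeks (right); filled orange points passed in limma, open grey points did not, and the black bar is the list's median. The 2 panels have different x ranges; no point is filled at 4 weeks, and at 7 weeks the marker genes have a median of 3.00, neutrophil markers of -0.03 and proximal tubule markers of -0.40.

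Markers of other cell types also moved at 7 weeks, and their part in the results above was not tested. At this age 15.6% of all genes were higher and 16.7% lower in KO mice. Of 9 dendritic cell markers 6 rose and 0 fell, and the per-mouse mean of the list lay between 6.25 and 6.93 in KO and between 5.67 and 5.93 in WT mice. Ccl22 (1.61 ± 0.14) and Itgae (1.18 ± 0.14) were among those that rose, and Cd209a (-0.19 ± 0.10) did not pass. Of 11 T, NK and B cell markers 6 rose and 0 fell (5.38 to 6.01 in KO, 4.92 to 5.24 in WT mice), with Cd3g at 1.70 ± 0.25 and Cd3e at 1.22 ± 0.15. Neutrophils share Lyz2 and Cd14 with macrophages. Of 11 neutrophil markers 3 rose and 2 fell, and their list mean overlapped (4.76 to 4.93 in KO, 4.68 to 4.90 in WT mice). Those that rose were Mmp8 (0.49 ± 0.11), Cxcr2 (0.36 ± 0.10) and Mmp9 (0.34 ± 0.08), and Ltf (-0.25 ± 0.07) was among those that fell. S100a9 (-0.14 ± 0.09) and Elane (-0.20 ± 0.09) did not pass. Of 10 proximal tubule markers 0 rose and 10 fell, with list means of 11.54 to 12.43 in KO and 12.47 to 12.56 in WT mice, among them the glucose transporter Slc5a2 (-0.91 ± 0.17). Of 9 endothelial markers 0 rose and 4 fell (8.69 to 9.08 in KO, 8.99 to 9.14 in WT mice), among them the VEGF receptor Kdr (-0.75 ± 0.14).

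Outside the 10 genes, those most like them over the 32 mice were Alox5ap, Fcer1g, Dapp1, P2ry6 and Cp. Likeness was Pearson's r with the per-mouse mean of the 10 genes, each scaled to mean 0 and SD 1, and it is a description: the mice share genotype and age, and 527 of the other 22170 genes had r over 0.9. Alox5ap, which serves leukotriene synthesis, had r = 0.988, Fcer1g, the signalling chain of Fc receptors, 0.987, the adaptor Dapp1 0.987, the nucleotide receptor P2ry6 0.986 and the copper-carrying ferroxidase Cp 0.983. After the mean of each group was taken out, the same 5 genes had values of 0.883 to 0.913. Of the marker genes themselves, which form part of the mean, 9 had r of 0.944 to 0.987, and Csf1r had 0.703. With the mean of each group taken out, these 9 had values of 0.761 to 0.929, and Csf1r had 0.345.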

How the data were processed

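The series matrix was used as deposited. Per the labels, the authors ran RMA in Affymetrix Expression Console (version not given in the sources used here) and deposited log2 signals per gene-level feature. Scanner files were not used here, so scan batches were not analysed. All 32 columns matched a sample, with 0 left over. The labels do not say that same-numbered mice are pairs.

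Of 41345 features, 23521 named 1 gene symbol, 1814 several and 16010 none. Features with 1 symbol were kept, by the highest mean for the 1082 genes with more than 1, giving 22180 genes (21994 matched a RefSeq table by Entrez number). No filter was applied.

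limma 3.58.1 (R 4.3.3, data.table version 1.17.8) fitted the means of 4 groups of 8 mice. The 5 contrasts were KO against WT at each age, their difference, and 7 against 4 weeks in each genotype. p was adjusted by Benjamini-Hochberg over all genes, and the script was tested on simulated data. Exact permutation tests, tables and figures used scipy 1.17.1, pandas 2.3.3, matplotlib 3.10.9 and numpy 2.4.6 under Python 3.11.15.

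The members and the 18 other lists (205 entries, 187 measured) were chosen from general knowledge with earlier results of these data known, so their direction is no independent support. In a list up to 4 genes with the smallest p at 7 weeks and up to 2 of those that did not pass could be named, with relatives of the members. Alternatives were array weights, a trended robust prior, median centring, quantile normalization, fits of the compared groups alone, a low-signal filter, other feature rules, a replicate block, rank-sum tests and each mouse left out.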

Additional observations from a re-analysis of the deposited data

Results flagged for a closer look

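Of 40 sets of 8 values (10 genes in 4 groups), 5 had 1 mouse far from the others, with a gap to the next mouse above Dixon's 95% critical value; chance gives about 1 in 20. They were Itgax in KO mouse 4 at 4 weeks (5.74, next 5.34), Itgax in WT mouse 8 at 4 weeks (5.52, next 5.07), Cd14 in WT mouse 5 at 4 weeks (7.03, next 6.09), Mrc1 in WT mouse 5 at 4 weeks (6.44, next 6.08) and Lyz2 in WT mouse 8 at 7 weeks (7.59, next 6.98). Each of them was the highest mouse of its group.

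The genotype effect differed between the ages for all 10 genes in limma's interaction test, by 0.73 for Csf1r (adjusted p = 0.00506), 2.22 for Adgre1 (3.43e-06), 2.25 for Cd68 (6.47e-07), 2.11 for Itgax (1.95e-07), 3.20 for Lyz2 (2.89e-06), 2.80 for Cd14 (2.37e-06), 3.29 for Ms4a6d (1.69e-05), 1.89 for Mrc1 (2.15e-06), 3.16 for Retnla (2.15e-06) and 2.63 for Clec7a (1.43e-05). Every difference is 7 weeks minus 4 weeks of KO minus WT, and 9.8% of all genes passed in this direction.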

How the results depend on the processing

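The number of marker genes that passed kept its value or stayed within 1.5 times of it in 148 of 150 alternatives. The exceptions were genes that passed with age in WT mice, 1 in the fit of all groups, 2 when only those groups were fitted and 3 with rank-sum tests. The low-signal filter left out Retnla, and the remaining 9 passed at 7 weeks. Of 1495 alternative values of single genes 1483 kept direction and side of the threshold, 3 newly passed and 9 turned sign, none of them past the threshold. Cd14 at 7 against 4 weeks in WT mice (-0.020) was 0.0063 with array weights, 0.0012 after median centring and 0.0076 after quantile normalization, and ran from -0.10 to 0.15 with 1 mouse left out; Ms4a6d in KO against WT at 4 weeks ran from -0.036 to 0.34. The cause was not tested. With the replicate block, the marker genes that passed were 0 at 4 weeks, 10 at 7 weeks and 10 in the interaction, as without it. Same-numbered KO and WT mice had deviations correlated at -0.27 to 0.23 at 4 weeks and -0.12 to 0.11 at 7 weeks, so the numbers were not taken as pairs. Over all genes the 4-week count was 9, against 2 with the block, 5 with array weights, 1 without the lowest-weight arrays, 1 with only the 4-week mice, 0 with rank-sum tests and 3 to 24 with 1 mouse left out. At 7 weeks it was 7167, against 10892 after median centring. Among the other lists, adipocyte and mesothelial markers had 2 genes past the threshold at 7 weeks after median centring or quantile normalization, against 1.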

Other observations

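Lists of adipocyte and mesothelial markers and of erythroid markers were also compared at 7 weeks, when 15.6% of all genes were higher and 16.7% lower in KO mice. Of 7 adipocyte and mesothelial markers, in a list fixed because Retnla is also an adipose tissue gene in mice, 0 rose and 1 fell: Adipoq, the adipocyte hormone (-0.37 ± 0.08, adjusted p = 0.000635 in limma), with Lep at -0.15 ± 0.12 and Upk3b at 0.14 ± 0.11. The list's median was -0.10, against -0.06 for all genes. Of the erythroid list 2 of 6 genes were measured: Epb42 rose (0.54 ± 0.09) and Slc4a1, which intercalated cells of the collecting duct also express, fell (-0.74 ± 0.17). Of 11 relatives of the marker genes by family 6 rose and 0 fell, and Ms4a4a rose by 2.20 ± 0.22.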
